A study of Mus musculus with 9 samples.

Results

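In mouse epidermal keratinocytes, 46 of 36442 genes were expressed in WT skin and stood under 10% of that level in Mi2 skin. A gene entered the set when both WT libraries stood at 50 normalized reads or more and each of the 2 Mi2 libraries stood under 10% of the mean of the WT libraries. A normalized read is a sequencing read multiplied by 1 scaling factor per library. Both limits were met by 53 of the 10320 genes with both WT libraries at 50 or more (0.514%), and 7 of the 53 were left out by name (keratin, Sprr, Lce, S100a, kallikrein, serpin, Gm and mitochondrial names, and Il33, Ascl2, Rspo3 and Tgm7). The genes were thus chosen by their values in all 4 epidermal libraries, so their WT and Mi2 levels are given as a description with no test. The same limits turned round, from Mi2 to WT, were met by 174 of 9917 genes (1.75%).

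RNA was sequenced from 9 libraries of sorted cells. The epidermal groups were keratinocytes of adult skin, 2 libraries labelled WT and 2 labelled Mi2, and the column names call the Mi2 libraries knock-outs. The other 5 libraries were regulatory T cells (Tregs) of skin-draining lymph nodes, though their column names call them skin Tregs. They comprised 2 control libraries (Ctl), 2 of Tregs with the WT TSLP receptor from Mi2 mice (TSLPR WT Mi2) and 1 of TSLPR-negative Tregs from Mi2 mice, whose column was matched as the remaining knock-out name. TSLP is an epithelial cytokine, and Tslp stood at 15.9 and 16.0 normalized reads in WT, against 2780 and 3132 in Mi2 epidermis. The sources used here do not give what drives the Mi2 deletion, the age of the mice beyond adult skin, the hour of collection, the number of mice per library or how TSLPR-negative cells were obtained. Nothing in the labels says that replicates came from different mice, so p-values measure only the spread between these libraries. In bulk samples, fewer cells of a type and less RNA per cell cannot be told apart.

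Mi-2β, encoded by Chd4, is the ATPase of the NuRD complex, which remodels nucleosomes and carries histone deacetylases. It is known in epidermis for its part in building the hair follicle and the basal layer. Chd4 stood at 1607 and 1942 normalized reads in WT, against 734 and 1207 in Mi2 epidermis, lower in both Mi2 libraries but far from 0. A gene total does not show whether part of the transcript is missing. The keratinocyte identity of the libraries was plain from Krt5, the keratin of the basal layer, at 125450 and 117800 normalized reads in WT beside 165630 and 135270 in Mi2. Depth was 5682391 to 8913804 reads in epidermis and 21849381 to 32238992 in Tregs. The mitochondrial share of reads was 13.8% and 12.9% for WT, against 29.7% and 15.5% for Mi2.

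The lost genes were mostly of moderate abundance. Their WT mean ran from 54.9 to 7208 normalized reads with a median of 166, beside 225 over all genes with both WT libraries at 50 or more. In 11 the WT mean was above 500, in 21 it lay between 100 and 500, and in 14 it was under 100. The mean of the Mi2 libraries was at most 8.54% of the WT mean, with a median of 3.81%. Across all 10320 genes, the higher Mi2 library stood at a median of 104% of the WT mean (quartiles 74.0% and 148%). Under 5% was reached in both Mi2 libraries by 18 of the 46, and 2 genes, Arsi and Ccdc27, had 0 reads in both. A further 11 had 1 to 3 reads over both libraries together. Per kilobase of RefSeq transcript, the order in WT began with Igfbp3 at 2963 normalized reads per kilobase, Ccrl1 at 902, Dbp at 852 and Mt4 at 435.

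**Figure D1:**
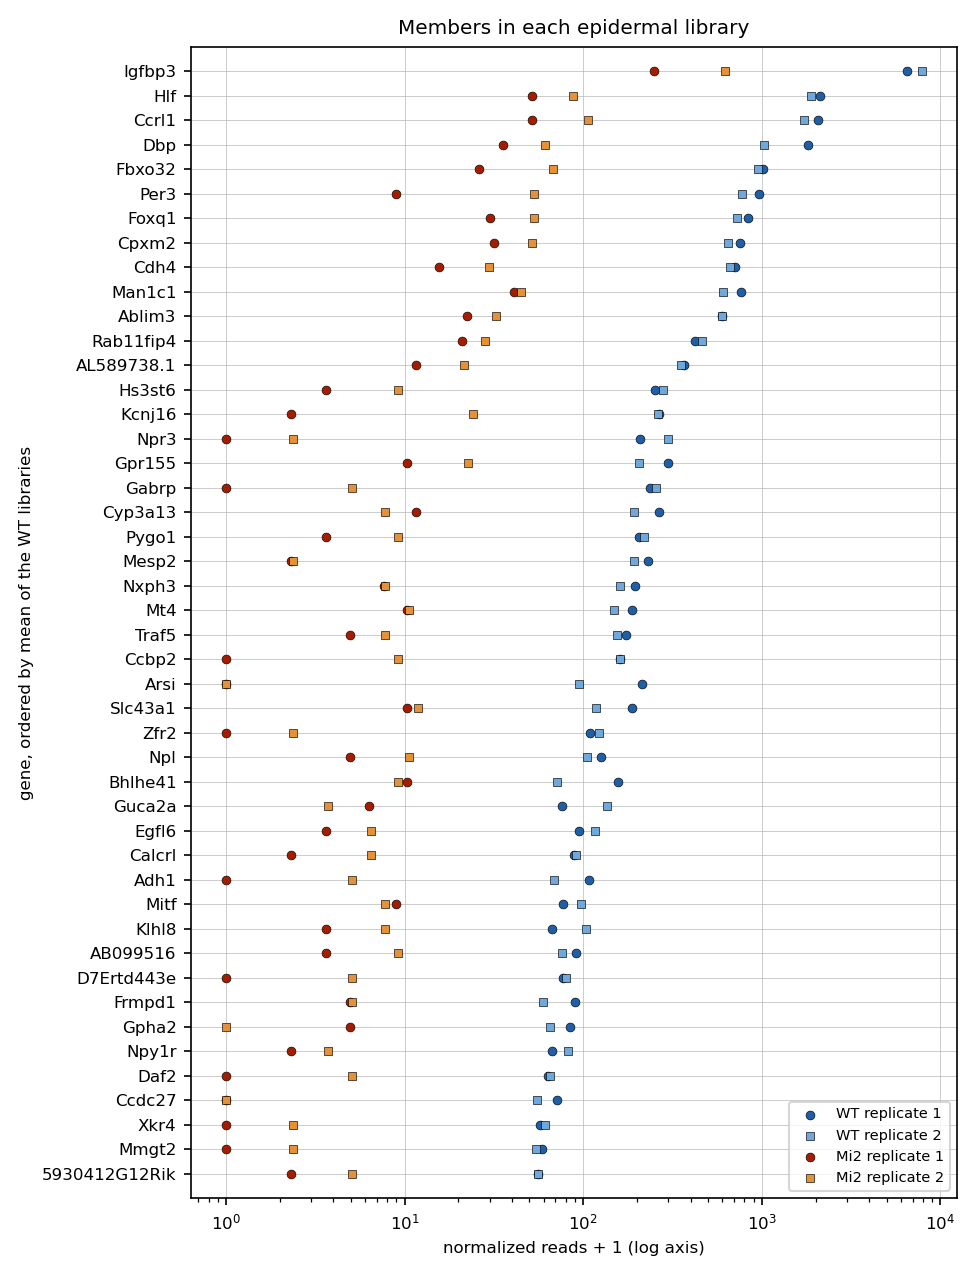
Each row is one of the 46 genes, ordered by WT mean, and each point is 1 epidermal library on a log axis of normalized reads + 1 (blue WT, red and orange Mi2, circles replicate 1, squares replicate 2). The Mi2 points lie left of the WT points in every row by construction, and Mi2 replicate 2 lies right of Mi2 replicate 1 in 39 of 46 rows. In the rows of Mesp2, Frmpd1, Nxph3 and Mt4 the Mi2 reads were equal and only the scaling factor differs.

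The Mi2 libraries did not retain the genes equally. Mi2 replicate 2 stood above Mi2 replicate 1 in 39 of 46 genes, below it in 5 and level with it in 2. Part of this count rests on scaling and on single reads. Mesp2, Frmpd1, Nxph3 and Mt4 had equal reads in the Mi2 libraries, at 1, 3, 5 and 7. They count as higher in replicate 2 only because 1 read is worth 1.36 there and 1.33 in replicate 1. Npr3, Zfr2, Xkr4 and Mmgt2 had 0 reads against 1, and the 2 level genes, Arsi and Ccdc27, had 0 in each. Over the 34 genes with reads in both, the median ratio of replicate 2 to replicate 1 was 1.85. Over the 14461 genes tested, replicate 2 was the higher one in 48.3%, and the median ratio was 0.981. Mi2 replicate 1 is also the library with 29.7% mitochondrial reads, and the part of that share in the result was not tested. With Mi2 replicate 2 left out, the limits were met by 185 genes, and with Mi2 replicate 1 left out by 56. Each Mi2 library had to pass the limit by itself, so the 46 were bound to be among both. With WT replicate 1 left out, 55 genes met the limits, 43 of the 46 among them. With WT replicate 2 left out, it was 52 genes, with 44 of the 46. In WT, replicate 1 was above replicate 2 in 27 of 46, and their ratio ran from 0.559 to 2.27.

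The 5 genes just inside the 10% limit were Igfbp3, Gpr155, Kcnj16, Mitf and AB099516, whose higher Mi2 library stood at 8.60%, 8.66%, 8.78%, 9.21% and 9.86% of the WT mean. Just outside were Cd59a, a complement inhibitor, at 10.1%, the carnitine and ergothioneine transporter gene Slc22a4 at 10.1%, Gpr137b and Bphl at 10.2% and Popdc3 at 10.3%. Nearest the WT minimum, Mmgt2, Ccdc27 and 5930412G12Rik had lower WT libraries of 53.7, 54.4 and 54.6, while Ankrd24 and Gne (48.6 each) and Zfp2 (45.6) stayed out.

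**Figure D2:**
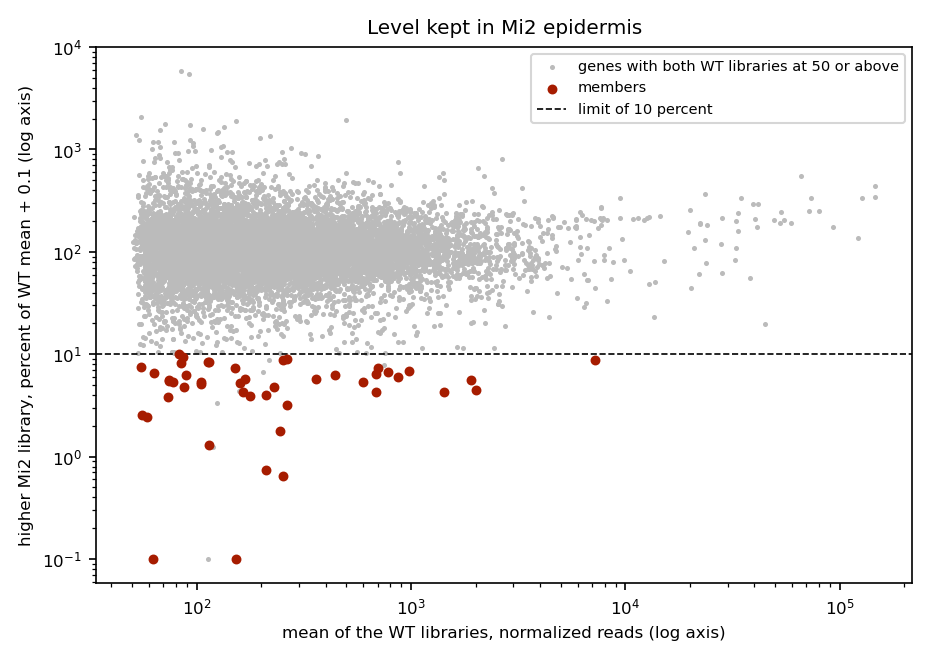
Genes with both WT libraries at 50 or more are plotted by WT mean (x, normalized reads, log axis) and by the higher Mi2 library as a percent of that mean plus 0.1 (y, log axis); red marks the 46 genes and the dashed line the 10% limit. Grey points under the line are the 7 genes left out by name, and the bulk of genes lies around 104%.

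The circadian clock is a loop in which BMAL1 (Arntl) and CLOCK switch on Per, Cry and Nr1d genes, whose products act back on them; the PAR-domain bZIP factors DBP, TEF and HLF carry the rhythm to target genes through D-box elements. In skin the clock is known to time cell division and stem cell activity. The lost genes hold 2 of the 3 PAR bZIP genes, Dbp and Hlf, with the period gene Per3 and the repressor gene Bhlhe41. Hlf stood at 2124 and 1897 normalized reads in WT, against 50.4 and 87.2 in Mi2, or 3.42% of the WT mean (limma log2 change -4.90, SE 0.282). Dbp stood at 1825 and 1026 against 34.5 and 59.9, or 3.31% (limma log2 change -4.88, SE 0.361). Both Mi2 values of each gene lie more than an order of magnitude under its lower WT value. Per3 stood at 964 and 776 against 7.96 and 51.8, with Mi2 replicate 1 well below Mi2 replicate 2, or 3.43% of WT. Bhlhe41 was the least abundant of the 4, at 156 and 70.4 against 9.29 and 8.17, or 7.72%.

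Their promoters were read for the D-box, the E-box and the cAMP response element, and none of these was found in all 4 windows. Each line gives the 250 bases before the RefSeq start on GRCm38.p6, 5′ to 3′ on the gene's strand. Capitals mark the D-box in Per3 (TTATGTAA or TTACGTAA), the E-box in Bhlhe41 (CACGTG) and the cAMP response element in Hlf (TGACGTCA); the window of Dbp held none of these. Motifs were searched on both strands.
Per3, chr4:151044666-151044915, minus strand: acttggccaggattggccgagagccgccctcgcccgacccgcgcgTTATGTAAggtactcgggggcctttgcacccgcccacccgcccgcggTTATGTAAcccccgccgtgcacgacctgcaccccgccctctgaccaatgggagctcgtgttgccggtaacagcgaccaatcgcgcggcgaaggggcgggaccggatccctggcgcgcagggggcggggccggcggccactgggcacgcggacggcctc
Bhlhe41, chr6:145865421-145865670, minus strand: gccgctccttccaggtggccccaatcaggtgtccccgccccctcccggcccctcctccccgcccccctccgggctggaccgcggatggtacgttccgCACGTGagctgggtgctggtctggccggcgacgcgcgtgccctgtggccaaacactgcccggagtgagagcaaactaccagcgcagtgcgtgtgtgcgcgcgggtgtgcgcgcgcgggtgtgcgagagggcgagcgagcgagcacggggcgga
Hlf, chr11:90390918-90391167, minus strand: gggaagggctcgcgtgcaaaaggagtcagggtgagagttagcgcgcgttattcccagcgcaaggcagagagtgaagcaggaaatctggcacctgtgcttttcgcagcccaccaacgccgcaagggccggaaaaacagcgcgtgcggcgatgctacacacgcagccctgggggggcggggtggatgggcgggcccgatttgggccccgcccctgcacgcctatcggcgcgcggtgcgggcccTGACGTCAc
Dbp, chr7:45704997-45705246, plus strand: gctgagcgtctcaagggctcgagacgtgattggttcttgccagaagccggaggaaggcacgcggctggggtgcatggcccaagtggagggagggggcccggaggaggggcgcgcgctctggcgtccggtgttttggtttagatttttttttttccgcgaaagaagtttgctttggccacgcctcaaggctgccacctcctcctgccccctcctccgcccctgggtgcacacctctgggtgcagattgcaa
Per3 holds 2 D-boxes, and no other lost gene with a window held one. The E-box of Bhlhe41 begins at position -153 and the element of Hlf at -9, counted back from the start. The windows hold 33 CpG in Per3, 31 in Bhlhe41, 26 in Hlf and 16 in Dbp, beside a median of 17 (quartiles 11 and 23) over genes with both WT libraries at 50 or more.

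The other clock genes, which the limits did not choose, were tested in the fit of all epidermal genes with limma (log2 of value + 1, Benjamini-Hochberg adjusted p under 0.05). Of 14 of them, 7 fell, 0 rose and 7 were not called, beside 13.1% of all tested genes called lower and 15.1% called higher (28.2% in either direction). Scaled without mitochondrial genes, the 2185 higher and 1900 lower calls over all genes became 1525 and 2742, and 8 of the 14 clock genes fell. The median log2 change of these 14 was -1.06, beside -0.03 over all genes. Tef, the remaining PAR bZIP gene, fell from 3005 and 2472 to 358 and 515 (limma log2 change -2.66, SE 0.239, adjusted p = 0.00107). Nr1d1, which encodes the repressor REV-ERBα, fell from 2889 and 1986 to 280 and 207, its higher Mi2 library standing at 11.5% of the WT mean, outside the limit (limma log2 change -3.31, SE 0.257, adjusted p = 0.000837). Npas2, a partner of BMAL1, fell from 61.5 and 91.5 to 7.96 and 5.45, and Cry2 from 660 and 645 to 149 and 138. Per2 fell from 449 and 409 to 26.5 and 129, again with Mi2 replicate 1 the lower, Nr1d2 from 1081 and 749 to 301 and 317, and Bhlhe40 from 722 and 698 to 366 and 490.

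The 7 clock genes that were not called include Clock and Arntl, of the positive arm of the loop. Npas2, a partner of BMAL1 and so of that arm too, was called lower. Clock was at 425 and 458 in WT, against 610 and 567 in Mi2, and Arntl at 45.6 and 107 against 212 and 135. Arntl2 was at 85.3 and 87.1 against 129 and 230. Nfil3, the repressor that competes for D-boxes, was at 1.98 and 20.3 against 58.4 and 36.8. Gm129 (Ciart) was at 88.3 and 48.6 against 18.6 and 32.7 (limma log2 change -1.37, SE 0.447, adjusted p = 0.0578). Per1 at 886 and 862 against 1193 and 779 and Cry1 at 82.4 and 112 against 109 and 108 overlapped between the groups. The calls of Nr1d1, Tef and Cry2 held under all 13 alternatives, while that of Bhlhe40 ended without either WT library, without Mi2 replicate 1, without the trend and without the filter (adjusted p 0.0144 to 0.239 over its alternatives), those of Nr1d2 and Per2 without WT replicate 1, that of Per2 also without the trend, and that of Npas2 without WT replicate 2; 4 genes fell without WT replicate 1 and 8 without Mi2 replicate 2. Some genes that were not called passed under an alternative: Arntl was higher without WT replicate 2 and with the replicate block (adjusted p 0.03 to 0.385 over its alternatives), and Arntl2 was higher by edgeR and DESeq2, without Mi2 replicate 1 and with the block (0.0154 to 0.235). Nfil3 was higher with a pseudocount of 5, without WT replicate 2 and with the block (0.0144 to 0.282), and Gm129 was lower without Mi2 replicate 2, with the block and when scaled without mitochondrial genes (0.0365 to 0.404). Whether the groups were collected at the same hour is not in the labels, so hour of collection and genotype cannot be told apart.

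**Figure D3:**
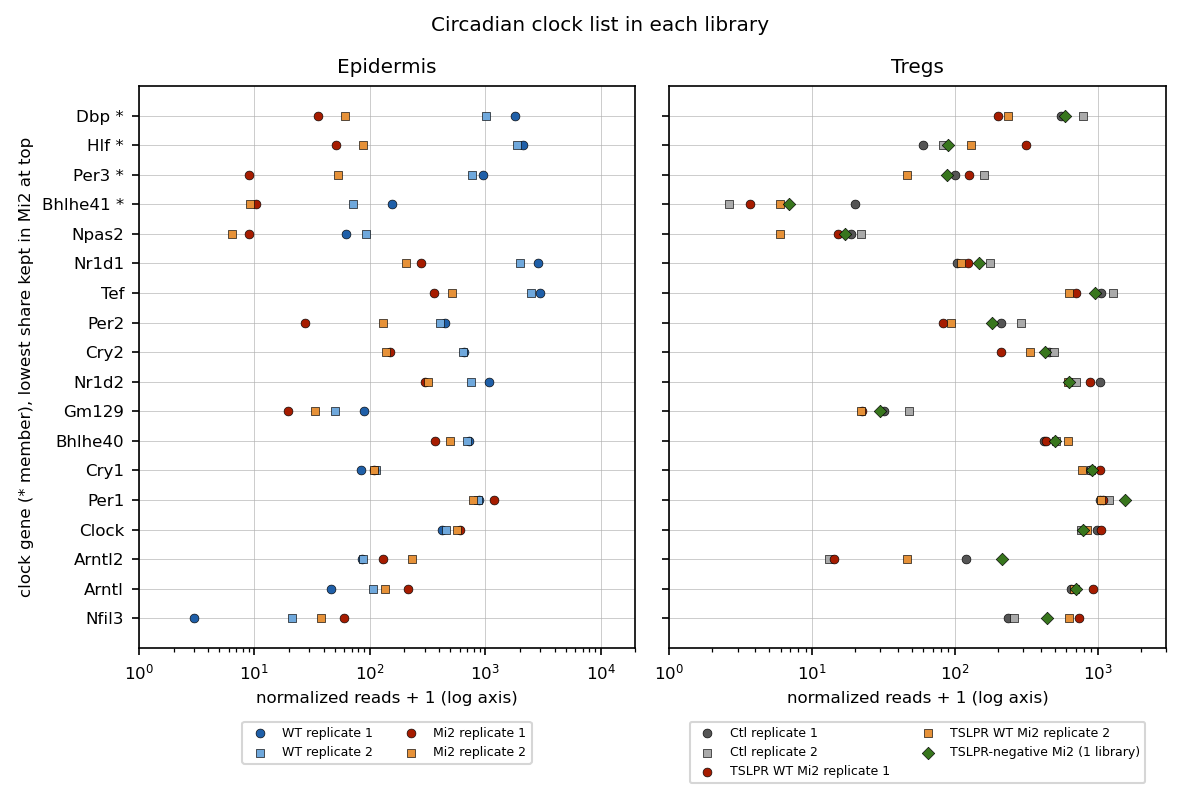
The 18 clock genes are rows, ordered by the share of the WT mean that Mi2 epidermis kept, with epidermal libraries on the left and Treg libraries on the right (points are libraries, log axes of normalized reads + 1, asterisks mark the 4 lost genes). In epidermis the first 12 rows have Mi2 points left of WT points, in Tregs the 2 TSLPR WT Mi2 points of Dbp, Per2, Tef, Cry2, Npas2 and Gm129 lie left of the Ctl points (the last pair not called), and those of Nfil3 and Hlf lie right.

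The lost genes included 7 receptors, and 2 of them are scavengers of chemokines. Ccrl1 (now Ackr4) takes up the chemokines that guide dendritic cells to lymph nodes, and Ccbp2 (now Ackr2) takes up inflammatory CC chemokines; neither signals through G proteins. Ccrl1 stood at 2073 and 1724 normalized reads in WT, against 50.4 and 105 in Mi2, or 4.09% of the WT mean (limma log2 change -4.68, SE 0.341). Ccbp2 stood at 159 and 160 against 0 and 8.17. A second row that the table also names Ccrl1 stood at 63.5 and 50.1 against 13.3 and 9.54, and Cxcr7 (Ackr3), the remaining tested gene of this family, at 578 and 507 against 582 and 208, with overlapping groups. Its fitted log2 change turned from -0.63 to 0.11 without Mi2 replicate 2.

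Npr3 is the clearance receptor that removes natriuretic peptides, and it had the lowest share kept among genes with any read in Mi2. It stood at 206 and 298 normalized reads in WT, against 0 and 1.36 in Mi2, 1 read in all, which is 0.259% of the WT level (95% exact interval 0.00656% to 1.45%). Other genes of natriuretic peptide signalling did not follow it: of 5 tested, 4 rose, 0 fell and 1 was not called, beside 15.1% of all genes called higher. Nppb, the B-type peptide, rose from 0 and 0 to 11.9 and 80.4 (limma log2 change 5.02, SE 0.993, adjusted p = 0.0126), and Npr1, the guanylyl cyclase receptor of A- and B-type peptides, from 9.92 and 8.71 to 55.7 and 34.1 (limma log2 change 2.11, SE 0.455, adjusted p = 0.0164). Npr2, the receptor of the C-type peptide, rose from 8.93 and 7.26 to 51.7 and 20.4, and the protease gene Furin from 799 and 801 to 2147 and 1385. The calls of Npr1, Npr2 and Furin ended without either WT library, and those of Npr2 and Furin also without the trend, and that of Npr2 also without Mi2 replicate 1, without the filter and when scaled without mitochondrial genes.

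Gabrp, the π subunit of GABA-A receptors, was the one subunit with substantial expression in WT keratinocytes. It stood at 235 and 253 normalized reads in WT, against 0 and 4.09 in Mi2 (0.821% of the WT level, 95% exact interval 0.169% to 2.41%). Of the 19 subunit genes in the table, 15 had 0 reads in every library, and Gabre stood at 12.9 and 8.71 against 11.9 and 32.7 and was not called. Calcrl, the receptor core for calcitonin gene-related peptide and adrenomedullin, stood at 87.3 and 90.7 against 1.33 and 5.45. Npy1r, a receptor of neuropeptide Y, stood at 65.5 and 81.3 against 1.33 and 2.72, which is 2.70% of WT (95% exact interval 0.552% to 8.03%). Gpr155, a multi-pass membrane protein, kept 6.17% of its WT level, at 299 and 205 against 9.29 and 21.8. Of 39 other genes named Gpr or Adgr that were tested, 10 rose, 11 fell and 18 were not called, beside 15.1% higher and 13.1% lower over all genes.

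Igfbp3, which binds insulin-like growth factors outside the cell and is made by undifferentiated keratinocytes, was the most abundant lost gene. It stood at 6510 and 7906 normalized reads in WT, against 249 and 620 in Mi2, or 6.03% (limma log2 change -4.19, SE 0.400). Even so, its lower Mi2 library exceeded the WT mean of 29 other lost genes. Cpxm2, a carboxypeptidase-like protein, stood at 750 and 648 against 30.5 and 50.4. The low-abundance secreted genes were Nxph3, a neurexin ligand (194 and 160 against 6.63 and 6.81), Guca2a, the peptide guanylin (75.4 and 135 against 5.31 and 2.72), Egfl6, a matrix protein with EGF repeats (94.3 and 115 against 2.65 and 5.45), and Gpha2, a glycoprotein hormone subunit (83.4 and 64.6 against 3.98 and 0). All 6 kept between 2.69% and 6.03% of WT.

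The 6 channels, transporters and surface proteins kept between 1.17% and 6.65%. Cdh4, the cadherin R-cadherin, stood at 710 and 663 normalized reads in WT, against 14.6 and 28.6 in Mi2. Of 12 other cadherins and protocadherins tested, 3 rose, 2 fell and 7 were not called, beside 15.1% higher and 13.1% lower over all genes. Kcnj16, an inwardly rectifying potassium channel subunit, had the most unequal Mi2 libraries among genes with reads in both, at 266 and 261 against 1.33 and 23.2. Of 16 other potassium channel genes tested, 8 rose, 1 fell and 7 were not called, read against the same 15.1% and 13.1%. Slc43a1, a transporter of large neutral amino acids, stood at 187 and 117 against 9.29 and 10.9; of 212 other solute carriers tested, 49 rose, 42 fell and 121 were not called, counts to be read against those shares too. Daf2 (Cd55b), a complement regulator, stood at 62.5 and 63.9 against 0 and 4.09, Xkr4 at 56.6 and 60.3 against 0 and 1.36, and Mmgt2, a magnesium transporter, at 57.6 and 53.7 against 0 and 1.36.

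Arsi, an arylsulfatase, had 0 reads in both Mi2 libraries after 212 and 93.6 normalized reads in WT, and was at least 37.9-fold lower with 3 reads set in each Mi2 library. Of 10 other sulfatase genes tested, 4 fell (Arsk, Arsa, Arsb and the sulfatase-modifying factor gene Sumf2), 1 rose (Sulf2) and 5 were not called, beside 13.1% of all genes called lower. Arsk stood at 82.4 and 71.1 against 13.3 and 27.2 (limma log2 change -1.95, SE 0.425, adjusted p = 0.0171), and the other 3 falls were by 1.19 to 1.43 on the log2 scale. Each of these 5 calls ended without either WT library. Adh1, which oxidises ethanol and retinol, stood at 107 and 67.5 against 0 and 4.09; of 25 other genes of xenobiotic and retinol oxidation, 4 rose, 11 fell and 10 were not called, beside 15.1% higher and 13.1% lower over all genes.

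Man1c1, a Golgi mannosidase that trims N-glycans, was the most abundant lost enzyme gene, at 760 and 609 against 39.8 and 43.6. Hs3st6, which sulfates heparan sulfate, stood at 251 and 277 against 2.65 and 8.17, Cyp3a13, a cytochrome P450, at 265 and 192 against 10.6 and 6.81, and Npl, the lyase that splits sialic acid, at 125 and 104 against 3.98 and 9.54. AB099516 (Mettl7a2), a methyltransferase-like gene, sat closest to the limit, at 90.3 and 75.5 against 2.65 and 8.17. Mt4, the metallothionein of stratified squamous epithelium, stood at 188 and 148 against 9.29 and 9.54.

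Promoters of Ccrl1 and Mt4 are shown beside those of the clock genes. They were picked for few CpG and TATAAA, so the contrast comes from the pick. Each has 5 CpG in 250 bases, and capitals mark TATAAA.
Ccrl1, chr9:104126644-104126893, minus strand: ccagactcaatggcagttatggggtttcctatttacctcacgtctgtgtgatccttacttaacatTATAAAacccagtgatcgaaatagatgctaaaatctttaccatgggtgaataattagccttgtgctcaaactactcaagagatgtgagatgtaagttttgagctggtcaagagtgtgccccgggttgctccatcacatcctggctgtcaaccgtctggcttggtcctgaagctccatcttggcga
Mt4, chr8:94136954-94137203, plus strand: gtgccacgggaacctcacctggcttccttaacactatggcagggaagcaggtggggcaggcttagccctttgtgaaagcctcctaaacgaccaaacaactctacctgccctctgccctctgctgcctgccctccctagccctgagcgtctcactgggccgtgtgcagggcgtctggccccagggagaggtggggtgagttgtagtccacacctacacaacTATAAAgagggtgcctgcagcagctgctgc
TATAAA begins at -30 in Mt4, the distance at which a TATA box usually lies, and at -185 in Ccrl1.

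Foxq1, a forkhead factor that hair shaft differentiation needs, stood at 841 and 722 normalized reads in WT, against 29.2 and 51.8 in Mi2. Pygo1, a co-activator of Wnt and β-catenin transcription, stood at 204 and 217 against 2.65 and 8.17. Mesp2, a bHLH factor known from somite segmentation, stood at 229 and 191 against 1.33 and 1.36, 2 reads in all, which is 0.649% of WT (95% exact interval 0.0784% to 2.36%). Its neighbour Mesp1 was at 7.94 and 2.90 against 0 and 2.72; of the 4 other tested genes on the segmentation list, 2 fell (Ripply3, from 36.7 and 50.8 to 5.31 and 1.36, and Lfng), 0 rose and 2 were not called, beside 13.1% of all genes called lower. Zfr2, which has zinc fingers of the RNA-binding kind, stood at 108 and 121 against 0 and 1.36 (0.581% of WT, 95% exact interval 0.0147% to 3.26%).

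Mitf is the regulator of pigment cells and also, with Tcfe3 and Tcfeb, of lysosomal genes. It stood at 76.4 and 96.6 normalized reads in WT, against 7.96 and 6.81 in Mi2, the highest share kept in the set at 8.54%. Tcfe3 rose from 275 and 299 to 544 and 524 (limma log2 change 0.90, SE 0.190, adjusted p = 0.0155), a call that ended without either WT library, and Tcfeb stood at 213 and 189 against 147 and 110 and was not called. Of the 12 melanocyte markers in the table, Mitf included, the summed level was 310 and 319 for WT, against 450 and 316 for Mi2, and Slc45a2 and Mc1r were at 0 in all 4 libraries. The other markers went in both directions. Dct stood at 14.9 and 14.5 against 1.33 and 0, and Ednrb at 12.9 and 3.63 against 7.96 and 0. Tyr stood at 0 and 0.726 against 0 and 0, and Mlana at 0 and 0 against 1.33 and 0. Sox10 stood at 2.98 and 2.18 against 38.5 and 9.54 and was not called. Tyrp1 stood at 0.992 and 1.45 against 6.63 and 2.72, and Kit at 0 and 2.18 against 0 and 5.45. Si (Pmel) stood at 115 and 149 against 118 and 105, and Gpnmb rose from 86.3 and 48.6 to 268 and 187. The part of pigment cells in the level of Mitf was not tested.

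Fbxo32 (atrogin-1), a ubiquitin ligase subunit known from muscle wasting, stood at 1016 and 950 normalized reads in WT, against 25.2 and 66.8 in Mi2, or 4.68% (limma log2 change -4.54, SE 0.419). Ablim3, an actin-binding LIM protein, stood at 596 and 599 against 21.2 and 31.3, and Rab11fip4, a recycling endosome protein, at 421 and 459 against 19.9 and 27.2. Traf5, an adaptor of TNF receptors, stood at 173 and 155 against 3.98 and 6.81. Klhl8, a Kelch adaptor, kept 5.61% and Frmpd1, a FERM and PDZ domain protein, 5.45%.

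AL589738.1 (A530084C06Rik) stood at 367 and 353 normalized reads in WT, against 10.6 and 20.4 in Mi2. In the GENCODE M21 annotation its exons lie wholly (100%) within those of Foxq1 on the opposite strand, over 3200 bases, and since the strand setting of the counting is not given, reads of these 2 genes cannot be told apart. Dbp shares 539 exon bases with Sphk2 on the opposite strand, and Sphk2 stood at 1050 and 971 against 450 and 507. Smaller overlaps joined Ccrl1 to Acad11 (319 and 346 against 153 and 208), Fbxo32 to Gm15943 (105 and 103 against 1.33 and 10.9), Cpxm2 to Gm15677 and Daf2 to Gm15674. Ccdc27 had 0 reads in Mi2 after 70.5 and 54.4 normalized reads in WT, at least 15.5-fold lower with 3 reads set in each Mi2 library. D7Ertd443e stood at 76.4 and 79.1 against 0 and 4.09 and 5930412G12Rik at 54.6 and 55.2 against 1.33 and 4.09.

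Markers of cell layers and other cells were read beside the set. Of 10 suprabasal keratinocyte genes tested, 5 fell, 2 rose and 3 were not called, beside 13.1% lower and 15.1% higher over all genes, the shares against which the next lists are read too. The sum of the list was 61139 and 57631 normalized reads in WT, against 14229 and 32715 in Mi2. Like most of the lost genes, that sum was lower in Mi2 replicate 1, but most of it was Krt10 and Krt1. In Mi2 these stood at 4945 and 17707 and at 4503 and 8896. Sbsn, Krtdap and Ivl were higher in Mi2 replicate 1 and the other genes of the list lower. Of 8 basal genes, 1 fell (Krt15) and 0 rose. Erythroid genes fell in 4 of 5 cases, with sums of 858 and 2754 against 211 and 376. These 4 are haemoglobin genes, near-identical copies whose reads the counting could split. The 14 T cell markers summed to 300 and 185 for WT, against 1645 and 828 for Mi2, nearly all of it Thy1 (without it 34.7 and 34.1, against 14.6 and 16.3), and Gzmb and Gzmc were at 0 in all 4 libraries. The 5 endothelial markers summed to 0 and 0, against 9.29 and 5.45, and the 5 mast cell markers to 0 and 0, against 2.65 and 0. The 8 fibroblast markers summed to 853 and 519, against 3170 and 1764, but without Sparc, which rose, to 258 and 119, against 226 and 53.1. Of 9 upper hair follicle genes tested, 3 rose (Krt17, Klk10 and 1600029D21Rik), 0 fell and 6 were not called, with sums of 4529 and 5172, against 19826 and 19096. Krt17 alone stood at 1957 and 2143, against 13321 and 13623, while Lrig1 stood at 1018 and 1073, against 984 and 1034. Of 7 bulge and germ genes 2 rose and 1 fell, of 6 hair matrix and shaft genes 3 rose and 2 fell, and of 6 sebocyte genes 3 rose (Ppard, Mgst1 and Fasn) and 0 fell. On the Merkel cell list Krt8 and Krt18 rose, from 0 in both WT libraries to 308 and 25.9 and to 389 and 50.4, while Atoh1, Isl1 and Sox2 were at 0 in all 4. Of 3 muscle genes tested 1 rose (Acta2, from 36.7 and 29.0 to 862 and 466), and of the neuron and Schwann cell list 1 of 1 (Tubb3). Of 5 Langerhans and dendritic cell genes 1 rose (Cd74), and of 2 neutrophil and macrophage genes 0 were called. The part of these cells in the lost genes was not tested.

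The Treg libraries took no part in choosing the genes. A transcript was matched for 45 of the 46, the exception being AL589738.1. Of these, 15 had a mean of at least 10 normalized reads over the 5 Treg libraries (33.3%), 19 lay above 0 and under 10, and 11 were at 0 in all 5 libraries. Of 9100 genes with both WT epidermal libraries at 50 or more and a Treg transcript, 8314 had a Treg mean of at least 10 (91.4%). Genes with 0 reads in Tregs included Cpxm2, Hs3st6, Mt4, Gabrp, Guca2a and Nxph3, and Igfbp3, the most abundant lost gene in skin, had 1 read in 1 Treg library. The lost genes with the highest Treg means were Traf5 at 975, Rab11fip4 at 739, Fbxo32 at 652, Calcrl at 632, Mmgt2 at 600 and Dbp at 473. Mmgt2 is thus near the bottom of the epidermal set in WT skin and among the best expressed of it in Tregs, with 465 to 719 over the libraries.

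**Figure D4:**
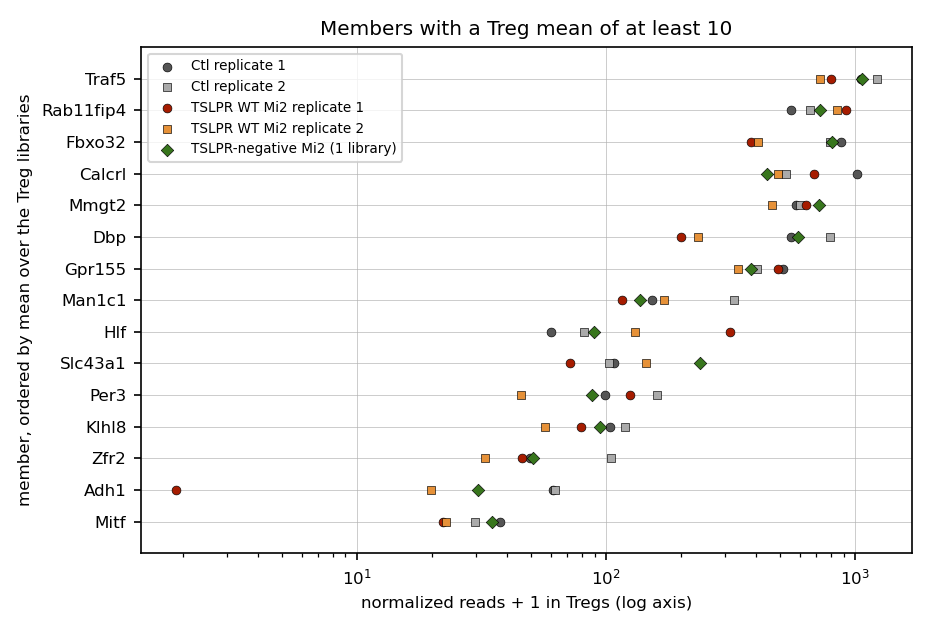
The 15 lost genes with a Treg mean of at least 10 are rows, and each point is 1 Treg library on a log axis of normalized reads + 1. The 2 TSLPR WT Mi2 points lie left of both Ctl points for Fbxo32, Dbp and Adh1, which were called, and for Traf5, Zfr2, Mitf and Klhl8, which were not; they lie right for Hlf, which was called, and Rab11fip4, which was not, and the TSLPR-negative point lies near the Ctl points for Fbxo32 and Dbp.

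In TSLPR WT Mi2 against Ctl Tregs, 4 of the 15 tested were called, 3 lower and 1 higher, or 26.7% beside 27.7% of all 12206 genes tested (14.7% higher, 13% lower), so the share called is near the background. Their median log2 change was -0.58, beside -0.01 over all genes, and 13 of 15 were below 0. Dbp stood at 555 and 791 normalized reads in Ctl and 199 and 234 in TSLPR WT Mi2, and fell without overlap (limma log2 change -1.61, SE 0.264, limma adjusted p = 0.000436). Fbxo32 fell from 875 and 796 to 380 and 406 (limma log2 change -1.08, SE 0.228, limma adjusted p = 0.00273), and Adh1 from 60.4 and 61.8 to 0.88 and 18.9 (limma log2 change -3.34, SE 0.811, limma adjusted p = 0.00699). Only the Treg fall of these 3 is a test result, since their epidermal fall was fixed by the limits that chose them. Hlf went the other way from epidermis, from 59.2 and 81.0 to 313 and 129 (limma log2 change 1.53, SE 0.410, limma adjusted p = 0.0124). The Hlf call ended without Ctl replicate 1, without TSLPR WT replicate 1 and without the trend (adjusted p 2.04e-05 to 0.165 over its alternatives), that of Adh1 without the trend, and all 4 with no filter on low values, where 0 of 16831 genes were called. Over the alternatives the adjusted p ran from 4.6e-07 to 0.0691 for Dbp, from 0.000167 to 0.0625 for Fbxo32 and from 1.02e-11 to 0.193 for Adh1.

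The single TSLPR-negative library stood at 588 for Dbp and 804 for Fbxo32, inside or beside the Ctl range, at 29.6 for Adh1, between the Ctl and TSLPR WT values, and at 88.6 for Hlf. Against TSLPR WT Mi2, 0 of 15 lost genes were called by limma, beside 0.942% of all genes, with 5 of 15 at an unadjusted p under 0.05, beside 11.9% of all genes; edgeR and DESeq2 called 1 each, Dbp. For Dbp the log2 change was 1.44 (SE 0.323, limma adjusted p = 0.0519, 0.00396 to 0.452 over its alternatives). Against Ctl, 0 were called by limma, 1 was at an unadjusted p under 0.05 (13.3% of all genes), and edgeR and DESeq2 called 0, beside 3.15% of all genes called by limma. The 3 comparisons share libraries, and 1 library cannot show its own spread: it was assumed to vary like the others.

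Of 17 clock genes tested in TSLPR WT Mi2 against Ctl, 4 fell (Dbp, Per2, Tef and Cry2), 2 rose (Nfil3 and Hlf) and 11 were not called, beside 13% lower and 14.7% higher over all genes, with a median log2 change of -0.21. Per2 fell from 211 and 287 to 82.0 and 92.6 (limma log2 change -1.49, SE 0.315, limma adjusted p = 0.00286), Tef from 1050 and 1267 to 703 and 623, and Cry2 from 457 and 496 to 208 and 332. Nfil3 rose from 235 and 260 to 736 and 630 (limma log2 change 1.46, SE 0.247, limma adjusted p = 0.000577). Tef, Per2 and Cry2 were called lower in both tissues, and Dbp in Tregs, its epidermal fall being fixed by the limits. Nr1d1, at 102 and 174 against 122 and 110 in Tregs, fell in epidermis and was not called in Tregs. That difference was not tested. Calls of Tef and Cry2 ended with single libraries left out and without the trend (adjusted p 0.00265 to 0.0971 for Tef and 0.00546 to 0.3 for Cry2 over their alternatives), and 0 clock genes were called in the 2 comparisons of the TSLPR-negative library.

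A feature the limits did not use was the base composition of promoters. Windows of 250 bases before the start were found for 33 of the 46 genes. Their median CpG count was 8, beside 17 over 7244 genes with both WT libraries at 50 or more and 11 over 17015 genes of the table. A count of 5 or fewer was found in 42.4% of the lost genes (14 of 33), beside 7.92% of the expressed genes and 34.2% of all genes. TATAAA was present in 21.2%, beside 7.32% and 12.5%. The E-box (CACGTG) was in 12.1%, beside 10.6% of expressed genes, the cAMP response element (TGACGTCA) in 9.09%, beside 3.23%, the D-box in 3.03% (1 gene), beside 0.732%, and the GC box (GGGCGG) in 60.6%, beside 67.3%. By role, 5 or fewer CpG were found in 4 of 7 receptors (Gabrp, Ccbp2, Calcrl and Ccrl1), 4 of 6 enzymes and metal-binding proteins (Mt4 among the 4), 2 of 5 secreted proteins, 2 of 3 channels and surface proteins and both uncharacterised genes with a window. None of the 4 clock genes, 4 other regulators or 2 adaptors had so few as the mean over a gene's windows. Single windows of Mitf held 3, 4 and 15 CpG. Shares are descriptions of 33 genes, and a motif match is not a site. The 46 genes lay on 17 chromosomes, with at most 7 on any of them (chromosome 11).

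**Figure D5:**
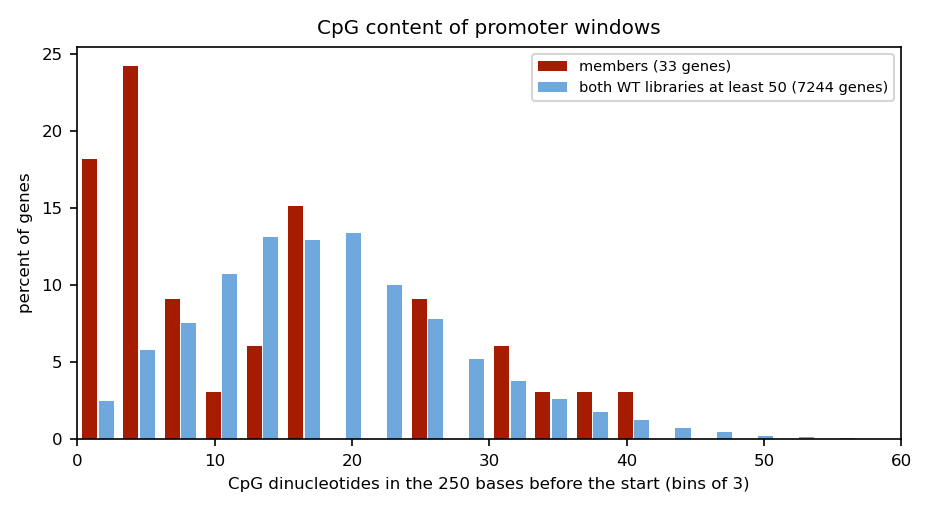
Bars give the percent of genes (y) by the CpG count of the 250 bases before the start (x, bins of 3, mean over a gene's windows), red for the 33 lost genes with a window and blue for 7244 genes with both WT libraries at 50 or more. The red bars pile up at 5 or fewer CpG (42.4% against 7.92%).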

How the data were processed

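The tables hold 4 epidermal and 5 Treg libraries. The deposited values are a signal: normalized read counts in which the value of 1 read is the same for every gene of a library, so whole reads could be recovered (tolerance 0.05 reads). The submitters' processing notes name bcl2fastq 1.8.3, STAR, DESeq2 and the builds mm9 and mm10 without roles; the Treg file header names HOMER, RefSeq transcripts and mm9. The sources used here give no strand setting. The plan named edgeR for raw counts and limma for scaled values; these values were scaled, so limma was used.

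From these values, limma 3.58.1 (R 4.3.3) with an intensity trend was fitted on log2(value + 1) for genes with a mean of at least 10 (14461 epidermal, 12206 Treg genes, the transcript with the highest mean for each symbol). Calls needed a Benjamini-Hochberg adjusted p under 0.05, two-sided; a fold on this scale understates the change of low genes. edgeR 4.0.16 and DESeq2 1.42.0 on recovered reads, other filters, pseudocounts, scalings and left-out libraries were alternatives. Intervals and the floor of 3 reads cover counting error only. The fit was tested on simulated data. The members, lists and tests were chosen with earlier results of these data known. Named genes were the 25 members with the highest WT mean, the 15 with the lowest share kept, members on a list, those nearest the limits, those called or highest in Tregs, up to 4 genes of a list with the smallest p, and Chd4, Chd3 and Tslp; some are not reported, further members were added to fill a role, and pathway lists without a member are not reported. Promoter sequences are from RefSeq (GRCm38.p6), matched for 33 of 46 members.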

Additional observations from a re-analysis of the deposited data

How the results depend on the processing

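The set held 46 genes at the limits used, 18 with a limit of 5% of the WT mean, 149 with 20%, 28 with a WT minimum of 100, 69 with a minimum of 25 or with reads per library total, 66 without mitochondrial genes in the total and 47 with TMM factors; with 1 library left out it held 52 to 185, the highest without Mi2 replicate 2. Sizes of change of its genes stayed falls in all 595 refits, which the choice of the genes largely fixes. Epidermal calls numbered 4085 (2185 higher, 1900 lower), 1113 to 5815 with 1 library left out, and 4267 (1525 higher, 2742 lower) when scaled without mitochondrial genes, a choice made after seeing the data that moved the median log2 change of all genes by -0.24. Clock genes outside the set that fell numbered 7, and 4 to 8 with a library left out; 0 rose, but 1 with a pseudocount of 5, edgeR or DESeq2 and 0 to 2 with a library left out. Log2 changes that turned were those of Cry1 (-0.0602 without mitochondrial genes, -0.0467 to 0.3895 with a library left out), Per1 (-0.0926 and -0.1658 to 0.4478) and Cxcr7 (-1.3718 to 0.1064 with a library left out).

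In Tregs, no filter on low values left 0 calls in all 3 comparisons, and so 0 members and 0 clock genes; the cause was not tested. TSLPR WT Mi2 against Ctl had 3383 calls (2504 to 3361 with a library left out), TSLPR-negative against TSLPR WT Mi2 115 (3 without trend, 236 with DESeq2, 159 to 453 with a library left out) and TSLPR-negative against Ctl 384 (1 without trend, 372 to 687 with a library left out). Members called in the first were 4, but 2 without trend, and clock genes 6, but 3. Members called against TSLPR WT Mi2 were 0, but 1 with a pseudocount of 5, a minimum mean of 30, edgeR or DESeq2, and 0 to 4 with a library left out. For TSLPR-negative against Ctl, log2 changes turned with a Ctl library left out for Dbp (-0.428 to 0.0821) and Fbxo32 (-0.1203 to 0.0146). Of 550 refits of single genes, 457 kept direction and call, 62 lost the call, 24 gained one and 7 turned.

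Same-numbered samples shared little beyond a number (correlation of deviations 0.123 in epidermis and 0.0917 in Tregs, from 2 pairs). With the replicate number as a block, epidermal calls numbered 5170, Treg calls 4361, called members 7 and clock genes outside the set 8 lower and 3 higher. With 2 libraries per group, depth limits most the genes with few reads in Mi2.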
